A study of Mus musculus with 5 samples.

Results

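The comparison set effector Th1 cells cultured with TOFA, an inhibitor of acetyl-CoA carboxylase, against control effector Th1 cells, to show which genes differed between them. The arrays measure RNA, and the activity of the enzyme was not measured. It used 2 of the 5 arrays of the series, the array labelled TOFA effector and the array labelled control effector, and all 34945 of 45037 probe sets that had 1 gene symbol. These probe sets belonged to 18193 genes, of which 12981 had a signal above background on at least 1 of the 2 arrays and were compared.

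Affymetrix mouse arrays measured RNA of splenic CD4 T cells of the BALB/c strain. Each of 5 groups had 1 array: memory Th1 cells, naive cells, and effector cells labelled control, TOFA and Rap. The labels attach the same Th1 culture, IL-12 at 10 ng/ml and IL-2 at 15 ng/ml over 5 days, to all 5 samples, and name no genotype or allele. Not given in the sources used here are the dose and time of TOFA, a vehicle for the control cells, the age of the mice, the meaning of Rap and the number of mice or cultures behind an array.

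Acetyl-CoA carboxylase turns acetyl-CoA into malonyl-CoA, the building block of new fatty acids and the brake on the entry of fatty acids into mitochondria. Acaca encodes the cytosolic form and Acacb the form at the mitochondrial outer membrane, and T cells that grow after stimulation depend on the pathway for new membrane lipid. ATF4 is a transcription factor made when amino acids are short, when unfolded protein gathers in the endoplasmic reticulum or when mitochondria are disturbed, and it turns on genes that import, make and charge amino acids. Type I interferon acts through the transcription factor complex ISGF3 on antiviral genes, and interferon gamma, the signature cytokine of Th1 cells, acts on guanylate binding proteins and related GTPases.

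No group had a replicate, so there is no test, p-value or error between samples, and 1 array per group limits how precise each value is. Signals are in the arrays' linear intensity unit after quantile normalization over the 5 arrays. Signals under the 40th percentile, 43.4, were raised to it as a floor before a difference was taken, so that a gene at the floor on 1 array has a bound, written as "at least". A gene was represented by its brightest probe set, that of the highest mean log2 signal over both arrays, and a gene whose signals were 2-fold or more apart was counted. Other probe sets of the same gene on the same arrays were the only internal check. The stretches of transcript that they measure can differ or overlap, so their agreement is not always independent. A counted gene was called supported where 2 or more of its probe sets were above the floor and all these went the same way. In addition, 2 or more of them had to be past 2-fold. Probe sets of a gene share the RNA, so they speak to the measurement and not to the spread between cultures.

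The median signal as deposited was 63.1 on the TOFA array and 68.7 on the control array, within the range of 63.1 to 99.5 over the 5 arrays. The ratios of 3' to 5' control probe sets, a sign of RNA quality, were 0.838 and 0.854 for Gapdh and 1.26 and 1.28 for beta-actin on the TOFA and control arrays. Spearman's rho between both arrays was 0.931 over all probe sets, given as a description.

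The cells on both arrays carried the marks of their label. All 13 T cell identity genes on the array were above the floor on each of the 5 arrays, and 0 of 13 differed by 2-fold between TOFA and control cells (median -0.11 on the log2 scale). Cd3e, a chain of the T cell receptor complex, had signals of 1407 in control and 1292 in TOFA cells, with 2932 in naive, 1786 in Rap and 2087 in memory cells. Cd4 had 628 and 536, with 897 in naive, 525 in Rap and 483 in memory cells. The Th1 regulator gene Tbx21 stood at 2036 in control and 2401 in TOFA cells, against 121 in naive cells, 2967 in Rap cells and 710.1 in memory cells. Markers of other cells were measured on the same arrays. Of 19 myeloid and neutrophil markers, 16 were under the floor in control and 12 in TOFA cells, with summed signals of 509 and 829, against 140609 in memory cells. Of 9 erythroid and platelet markers, 6 were under the floor on each array. They summed to 435 in control and 441 in TOFA cells, against 10887 in memory cells. Of 13 B cell markers, 3 in control and 4 in TOFA cells were under the floor. They summed to 2215 and 2641, beside 40177 in naive and 60466 in memory cells. Of 10 CD8 and killer cell markers, 2 and 5 were under it. They summed to 2678 and 2349, beside 1935 in naive and 5911 in memory cells. Of 13 dendritic cell markers, 3 and 5 were under it. They summed to 7551 and 9167, beside 10575 in naive and 62216 in memory cells. Gene levels printed for the naive and memory arrays can thus include RNA of these other cells, whose part was not tested. Single bright genes weigh on such sums. Ighm, a B cell marker, had 1352 in control and 1814 in TOFA cells, and Bst2, a dendritic cell marker, had 1108 and 2864. The median difference over the members compared was 0.16 for B cell and -0.32 for dendritic cell markers. In a population of cells, fewer cells of a type and less RNA per cell cannot be told apart.

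TOFA cells differed from control cells in a small share of genes. The median difference over all 12981 genes was 0.01 on the log2 scale, and the middle 50% of genes lay between -0.23 and 0.26. Past 2-fold, 316 genes (2.43%) stood higher in TOFA cells and 282 (2.17%) stood lower, which is 598 in all (4.61%). In 85 of the higher and 96 of the lower genes the other array was at the floor, so that their size is a bound. Of the 4671 genes whose brighter array reached a signal of 1000, 74 were higher and 34 lower, while of the 3723 genes whose brighter array stayed under 150.5, the 60th percentile, 112 were higher and 136 lower. Bright genes past 2-fold were thus more often higher than lower, and dim genes more often lower.

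**Figure D1:**
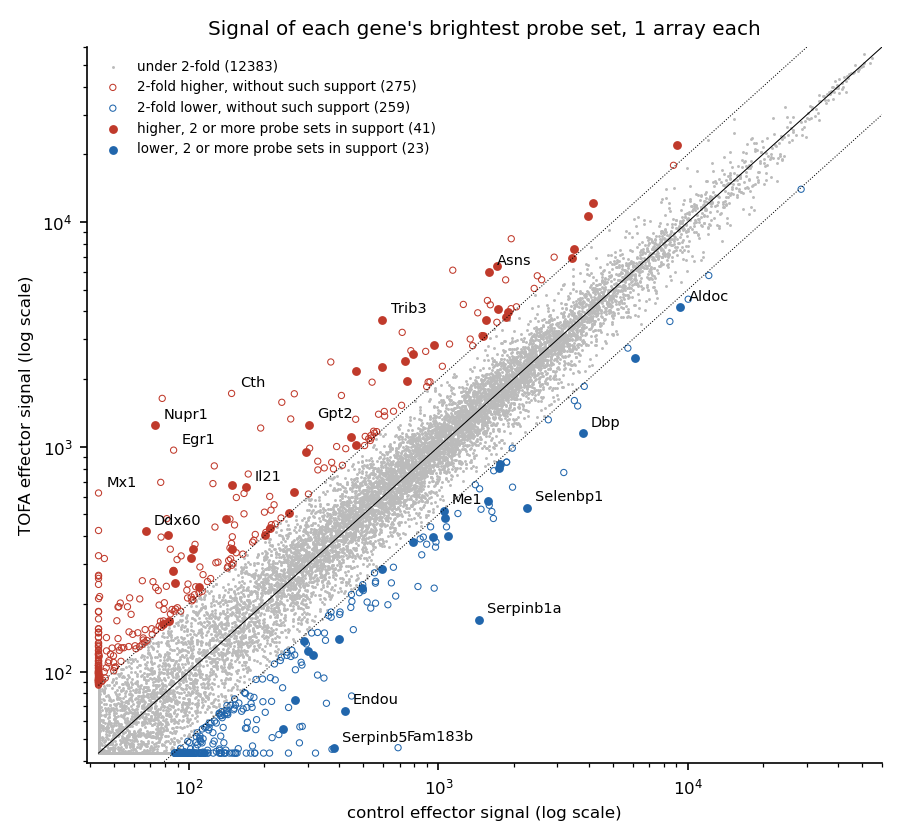
Quantile-normalized signal of each gene's brightest probe set on the control effector array (horizontal, log scale) against the TOFA effector array (vertical, log scale), 1 point for each of 12981 genes, with dotted lines at 2-fold. Filled points are the 41 higher and 23 lower genes supported by several probe sets, and the points lined up along both edges are genes with 1 array at the floor of 43.4.

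Agreement between probe sets grew with the size of the difference. Several probe sets were above the floor for 6101 of the genes compared. All of them went the same way in 42.0% of the 2114 genes under 1.1-fold apart, in 66.1% of the 629 genes between 1.5-fold and 2-fold, in 70.4% of the 159 genes between 2-fold and 3-fold and in 84.8% of the 46 genes at 3-fold or more. A further probe set was past 2-fold the same way in 26.4% of the 159 genes and in 58.7% of the 46. The SD of the difference between probe sets of a gene was 0.37 on the log2 scale over all 6101 genes, 0.30 where the mean signal reached 1000 and 0.53 where it was under the 60th percentile.

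With this rule, 41 of 6101 genes (0.672%) were higher and 23 (0.377%) were lower with support. Of the 116 higher genes with several probe sets, 86 had all of them going up and 0 had another probe set past 2-fold the other way. Of the 89 lower genes, 65 had all of them going down and 2 had another past 2-fold upward.

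**Figure D2:**
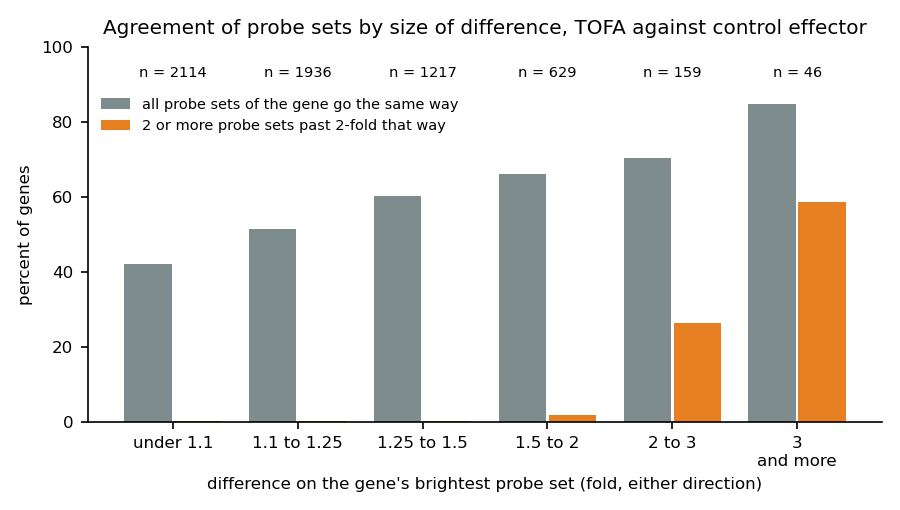
Share of genes (percent, vertical) whose probe sets above the floor all went the same way (grey) or of which 2 or more were past 2-fold that way (orange), by the fold difference on the brightest probe set (horizontal), over the 6101 genes with several probe sets. Both shares are largest in the last group, the 46 genes at 3-fold or more, at 84.8% and 58.7%. The brightest probe set counts in the orange share, so groups under and past 2-fold cannot be compared for that share.

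Of the genes of the enzyme that TOFA inhibits, that of the cytosolic form differed little. Acaca had signals of 836 in control and 857 in TOFA cells, beside 327 in naive, 816 in Rap and 397 in memory cells, a difference of 0.04 on the log2 scale, and its dim second probe set gave 0.20. Acacb had 134 in control and 51.6 in TOFA cells, with 42.5 in naive, 8.43 in Rap and 67.3 in memory cells, which made it 2.60-fold lower on a probe set near the floor. The other Acacb probe set was under the floor on both arrays. Fasn, which encodes the fatty acid synthase that uses malonyl-CoA, stood at 3582 in control and 3150.5 in TOFA cells.

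Among 16 genes of acetyl-CoA carboxylation and fatty acid synthesis, 3 were at least 2-fold lower and 0 higher, and the median was -0.12. Beside Acacb these were Acss2, which makes acetyl-CoA from acetate (930.1 in control, 440.2 in TOFA, 2.11-fold), and Me1, the cytosolic malic enzyme that supplies NADPH to lipid synthesis. Me1 was supported, with 1051 in control and 519.6 in TOFA cells on the brightest probe set (2.02-fold lower) and 327 and 96.7 on the other (3.38-fold lower). With a constant added in place of the floor, or with the mean over probe sets, 1 gene of this list was past 2-fold. The Me1 levels were 46.5 in naive, 151 in Rap and 107 in memory cells, so that the control array was the highest of the 5. Slc25a1, the carrier that exports citrate from mitochondria, had 1624 in control and 1069 in TOFA cells, and Acly, which cleaves that citrate to acetyl-CoA, 9798 and 6782. Mid1ip1, whose protein helps acetyl-CoA carboxylase to assemble into its active form, went the other way at 1146 and 2037, under 2-fold. Outside the list, the mitochondrial malic enzyme gene Me2 was 2.48-fold lower with support, at 6137 in control and 2471 in TOFA cells.

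Genes that desaturate and lengthen fatty acids showed no member past 2-fold in either direction among 16 (median 0.04). Elovl6, which lengthens palmitate, had 1886 in control and 1315 in TOFA cells, and its 3 probe sets lay between -0.62 and -0.52. Hacd1, an enzyme of the elongation cycle, had 1539.6 and 820.0, the furthest of the list at -0.91. The desaturase genes Scd1, with 3622 and 3976, and Scd2, with 33506 and 34547, were near 0. Acyl-CoA synthetase and glycerolipid genes had a median of -0.01, with 0 of 21 past 2-fold.

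Cholesterol synthesis genes lay below 0 in 16 of 17 cases, with a median of -0.47 and 0 members past 2-fold. Over single probe sets, 33 of 36 were below 0, beside 49.3% of all probe sets above the floor. The sterol response element bound by SREBP, searched as TCACNCCAC on both strands, stood in 1 of the 14 promoter windows of this list and in 1.24% of all windows. Hmgcs1, an early enzyme of the pathway, had 18454 in control and 11286 in TOFA cells, with 2785 in naive, 7138 in Rap and 2745 in memory cells. Its 5 probe sets differed by -0.71 to -1.04. Lss, the cyclase that forms lanosterol, had 2603 in control and 1649 in TOFA cells, and its 3 probe sets lay between -1.17 and -0.66. Pmvk, a kinase of the mevalonate branch, had 1785 and 989.7. The TOFA level was thus below the control level and above the naive level in each of these 3 genes.

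Of 13 genes of SREBP control and sterol handling, 2 were higher and 0 lower (median 0.17). Abca1, which exports cholesterol from cells and is a target of the sterol sensor LXR, had 166 in control and 619.8 in TOFA cells, 3.73-fold, with 1319 in naive, 270.4 in Rap and 4281 in memory cells. Its other probe set, near the floor, differed by 0.46. Nr1h3, the gene of LXR alpha, was at least 2.29-fold higher, with 42.7 in control and 99.1 in TOFA cells. Abcg1, another sterol exporter, had 1001 and 1708. The SREBP genes Srebf1, with 3849.6 in control and 4425 in TOFA cells, and Srebf2, with 2018 and 1695, were under 2-fold apart.

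In fatty acid oxidation, 1 of 19 genes was higher and 0 lower (median 0.05). This was Acot2, a mitochondrial thioesterase that frees fatty acids from coenzyme A, with 166 in control and 503 in TOFA cells (3.03-fold). Plin2, which coats lipid droplets, stood at 1859 in control and 5525 in TOFA cells (2.97-fold), with 263 in naive, 2439 in Rap and 2924 in memory cells, and was the other higher gene of the 10 PPAR targets compared.

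Genes of the ATF4 response and of amino acid supply made up the largest group of higher genes among the lists. The 6 lists of this kind held 100 genes compared, of which 26 were at least 2-fold higher and 0 lower, beside 2.43% and 2.17% of all genes, and 13 were higher with support, beside 0.672% of all genes with several probe sets. They made up 8.23% of all higher genes. ATF4 pairs with C/EBP proteins on the element TGATGNAA, where N is any base. The element was searched on both strands in the RefSeq promoter windows of 300 bases, 250 before to 50 after the start site, on build GRCm38.p6. The windows are those of the C57BL/6J reference, whereas the arrays held BALB/c cells. It was found in 3.97% of all 32851 windows, in 24 of 248 higher genes with a window (9.68%) and in 8 of the 20 higher members of the 6 lists with a window (40%). Of their members under 2-fold, 8 of 61 (13.1%) held it. A match describes letters and not binding. The windows of Nupr1 (chr7:126625421-126625720, minus strand), Trib3 (chr2:152344011-152344310, minus strand), Slc1a4 (chr11:20332664-20332963, minus strand) and Chac1 (chr2:119350992-119351291, plus strand) are shown because they were the furthest higher members of the 6 lists whose window holds the element. Of the 20 higher members with a window, 12 held no match. Each is written 5' to 3' on the transcribed strand with the match in capitals, which in all 4 is the element read on the opposite strand.
Nupr1: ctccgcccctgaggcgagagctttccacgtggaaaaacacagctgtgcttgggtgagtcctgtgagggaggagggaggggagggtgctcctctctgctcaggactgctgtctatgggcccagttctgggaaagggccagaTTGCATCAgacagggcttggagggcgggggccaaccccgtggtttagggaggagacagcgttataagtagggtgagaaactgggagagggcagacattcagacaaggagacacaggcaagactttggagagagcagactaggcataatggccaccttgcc
Trib3: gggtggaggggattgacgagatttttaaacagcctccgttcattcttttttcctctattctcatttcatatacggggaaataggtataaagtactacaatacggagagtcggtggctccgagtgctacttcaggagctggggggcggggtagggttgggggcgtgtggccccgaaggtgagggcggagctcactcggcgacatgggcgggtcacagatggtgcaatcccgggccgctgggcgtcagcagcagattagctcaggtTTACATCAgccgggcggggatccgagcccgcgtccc
Slc1a4: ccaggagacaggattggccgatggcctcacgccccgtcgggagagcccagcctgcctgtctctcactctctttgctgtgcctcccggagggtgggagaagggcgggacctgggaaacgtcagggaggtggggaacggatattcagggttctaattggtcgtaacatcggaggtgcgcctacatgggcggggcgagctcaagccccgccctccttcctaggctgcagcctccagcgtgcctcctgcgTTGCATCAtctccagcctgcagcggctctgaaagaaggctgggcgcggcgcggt
Chac1: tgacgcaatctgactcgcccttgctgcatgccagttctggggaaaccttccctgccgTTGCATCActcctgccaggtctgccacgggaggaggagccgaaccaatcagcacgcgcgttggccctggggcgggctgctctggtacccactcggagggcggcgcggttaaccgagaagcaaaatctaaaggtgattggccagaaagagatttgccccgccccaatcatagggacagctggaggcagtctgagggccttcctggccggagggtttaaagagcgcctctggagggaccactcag
The match lay 110 bases before the start site in Nupr1, 193 before it in Chac1, 4 before it in Slc1a4 and 14 after it in Trib3. The letters TTGCATCA were shared by Nupr1, Slc1a4 and Chac1, and Trib3 held TTACATCA.

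Of 16 regulators of this response, 9 were at least 2-fold higher, 5 with support, and 0 were lower (median 1.15). Atf4 itself had 4159 in control and 12163 in TOFA cells (2.92-fold), with 4247 in naive, 2881 in Rap and 3557 in memory cells. A second Atf4 probe set gave 2723 and 6267 (1.20 on the log2 scale), and the last was at the floor in control cells. The TOFA array was the highest of the 5 for this gene.

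Nupr1, a small stress protein of chromatin, had the largest supported difference. Its signal was 73.0 in control and 1246 in TOFA cells, against 3.65 in naive, 17.4 in Rap and 81.9 in memory cells. This was 17.1-fold on that probe set and 16.2-fold on the other. Trib3, a pseudokinase that is an ATF4 target and restrains its action, stood at 595 in control and 3672 in TOFA cells, with 198 in naive, 314 in Rap and 62.0 in memory cells. Its probe sets gave 6.17-fold and 5.69-fold. Both genes had their highest level of the 5 arrays in TOFA cells.

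Chac1, which degrades glutathione, had 173 in control and 756 in TOFA cells (4.38-fold), against 37.1 to 39.4 in the 3 other groups. Ddit3, the gene of the stress factor CHOP, had 1572 and 4472 (2.85-fold), and its dimmer probe set differed by 0.38. Atf5, a relative of Atf4 that acts in mitochondrial stress, had 236 and 1577 on its only probe set (6.69-fold). Cebpb, whose protein pairs with ATF4, was supported at 2.35-fold, and Sesn2, a leucine sensor that restrains mTORC1, was 2.10-fold higher with a second probe set at 0.90. Ddit4 (13536 and 10904) and Vldlr (2104 and 1796), also placed in this list, lay below 0.

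Amino acid transporters were higher in 7 of 16 cases and lower in 0 (median 0.77). Slc7a3, a carrier of cationic amino acids, had 264 in control and 1720.3 in TOFA cells (6.51-fold), with 62.1 in naive, 194 in Rap and 37.9 in memory cells. Slc7a5, the light chain of the large neutral amino acid carrier, had 1958 and 8419 (4.30-fold), and its heavy chain gene Slc3a2 had 1258 and 4295 (3.41-fold). Slc1a4, which carries alanine, serine and cysteine, was supported, with 82.3 and 405 (4.92-fold) on the brightest probe set and 2.53-fold on the second, and a further probe set was under the floor on both arrays. Slc6a9, a glycine carrier, was also supported, with 140.5 and 475 (3.38-fold). Slc7a11, the cystine importer, had 46.7 and 124 (2.65-fold). Slc43a1, another neutral amino acid carrier, was the furthest below 0, with 127 and 75.3.

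Enzymes that make amino acids from central metabolites were unevenly affected. Of 13 amino acid and glutamine enzymes, 3 were higher, all with support, and the list's median was -0.09. Asns, asparagine synthetase, had 1590.3 in control and 6007 in TOFA cells, with 95.9 in naive, 859 in Rap and 188 in memory cells. Its 2 probe sets gave 3.78-fold and 3.62-fold. Gpt2, the mitochondrial alanine aminotransferase, had 302 and 1255 (4.16-fold), and its 4 probe sets lay between 0.94 and 2.53 on the log2 scale. Bcat1, which exchanges nitrogen with branched-chain amino acids, had 749.9 and 1954 (2.61-fold), with a further, dim probe set at 0.05.

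Among 14 serine and one-carbon enzymes, 3 were higher and 0 lower (median 0.30). Aldh1l2, the mitochondrial enzyme that oxidizes formyl-folate, had 77.0 in control and 694 in TOFA cells (9.01-fold) on its only probe set. Shmt2, which splits serine in mitochondria, was supported at 2.06-fold with 3 of 4 probe sets past 2-fold, and Psph, the last step of serine synthesis, was 2.04-fold higher. Mthfd2, the next mitochondrial folate enzyme, had 2365 and 4159, under 2-fold.

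The largest difference among the 17 cysteine and glutathione genes was in Cth, the lyase that makes cysteine from cystathionine. It had 148 in control and 1726 in TOFA cells, against 2.33 in naive, 59.5 in Rap and 6.84 in memory cells. The 11.7-fold difference rests on its only probe set. The median of that list was 0.02, and its other 2 higher members, Chac1 and Slc7a11, were also in the lists above.

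Of 26 tRNA synthetase genes, which charge tRNAs with amino acids, 3 were higher and 0 lower, 21 lay above 0 and the median was 0.34. Aars for alanine (1727 and 4083, 2.36-fold) and Nars for asparagine (3497 and 7562, 2.16-fold) were supported, each by both of its probe sets. Cars, for cysteine, was 2.43-fold higher on the bright probe set, while the dim one went the other way at -0.53. Over single probe sets, 39 of 50 in this list were above 0, beside 50.7% of all probe sets.

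The unfolded protein response of the endoplasmic reticulum showed smaller differences in the same direction. Of 20 genes, 18 lay above 0 (median 0.39), 2 were higher and 0 lower. Herpud1, which helps to clear misfolded membrane proteins, was supported, with 959 in control and 2829 in TOFA cells (2.95-fold), beside 2030.2 in naive, 1011 in Rap and 2388 in memory cells. Its TOFA level was above, and its control level below, the naive and memory levels. Dnajb9, a chaperone of the lumen, had 660.4 and 1439 (2.18-fold), and Hspa5, the lumen's main chaperone, had 12012 and 23122 (1.92-fold). Selenos, a selenoprotein of the same membrane, was outside this list and supported at 2.01-fold by 3 probe sets.

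**Figure D3:**
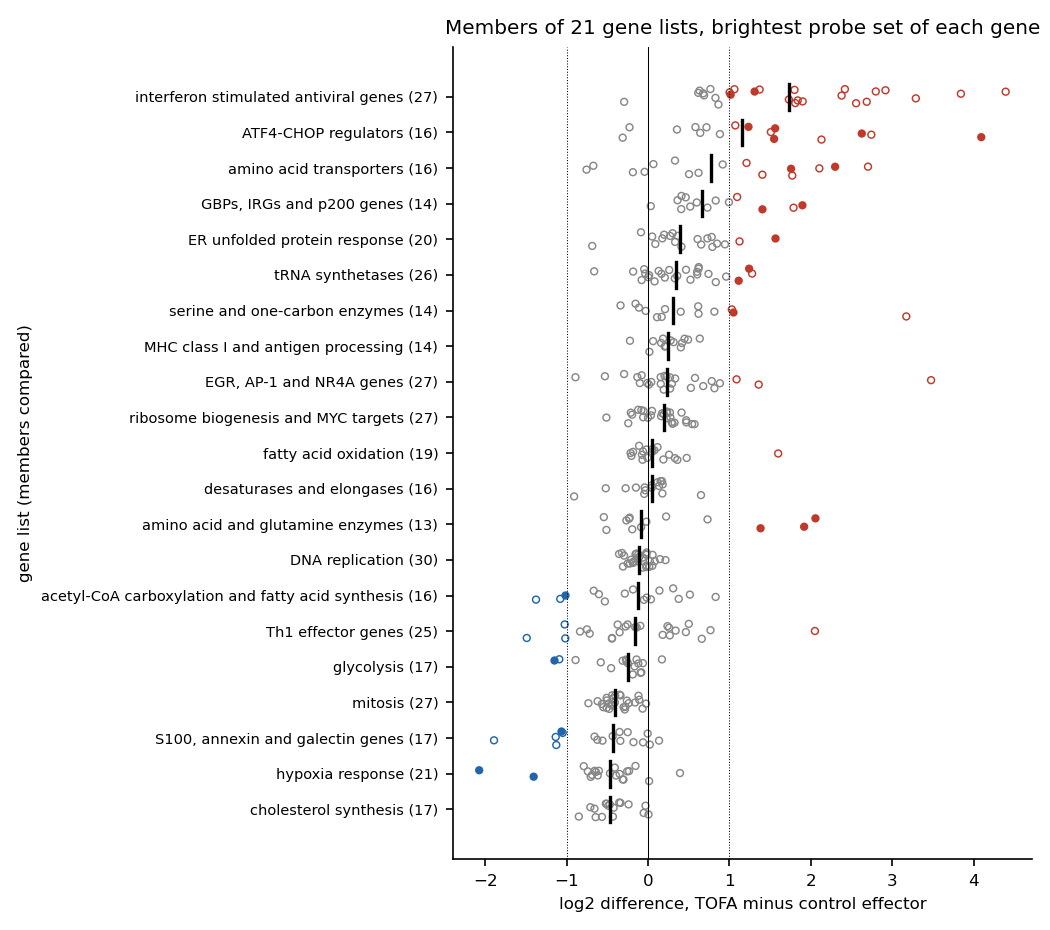
Difference between TOFA and control effector cells (log2, horizontal) for each member of 21 gene lists (vertical, number compared in parentheses), 1 point per gene on its brightest probe set. Red and blue points are past 2-fold (dotted lines), filled ones are supported by several probe sets, and black bars are list medians, which run from 1.73 in the antiviral list to -0.47 in cholesterol synthesis.

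Interferon stimulated antiviral genes formed the list with the highest median. Of 27 genes, 19 stood 2-fold or more above control and 0 below it, beside 2.43% and 2.17% of all genes. Above 0 lay 26 of the 27, beside 51.2% of all genes, and the median was 1.73 with floor values taken as they stand. Over single probe sets, 42 of 43 were above 0, beside 50.7% of all probe sets. The 4 interferon lists together, with regulators, GTPases and MHC class I, had 24 of 74 genes higher, 4 of them with support, and 0 lower. Of the 19 higher antiviral genes, 12 had 1 probe set above the floor, and 2 of the other 7 were supported.

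ISGF3 binds the interferon stimulated response element, searched here on both strands as GAAA and GAAA with 2 bases of any kind between them. It stood in 3.44% of all promoter windows, in 27 of 248 higher genes with a window (10.9%) and in 9 of the 18 antiviral genes with a window (50%). Of the 10 GTPase and p200 genes with a window, 7 held it, and of the 19 interferon regulators 3 (15.8%). Over these lists together it stood in 8 of 15 higher members (53.3%) and in 11 of 32 members under 2-fold (34.4%). The windows of Ifit3 (chr19:34583279-34583578, plus strand), Ifit1 (chr19:34640639-34640938, plus strand) and Ddx60 (chr8:61927837-61928136, plus strand) are shown as the furthest higher of the list members and supported genes whose window holds the element, with the 2 matches of each again in capitals.
Ifit3: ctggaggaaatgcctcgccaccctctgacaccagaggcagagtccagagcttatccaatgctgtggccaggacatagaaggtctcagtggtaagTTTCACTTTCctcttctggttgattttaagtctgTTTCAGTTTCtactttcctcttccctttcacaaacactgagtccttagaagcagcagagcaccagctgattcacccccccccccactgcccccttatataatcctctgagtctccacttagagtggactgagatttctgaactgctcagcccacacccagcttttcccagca
Ifit1: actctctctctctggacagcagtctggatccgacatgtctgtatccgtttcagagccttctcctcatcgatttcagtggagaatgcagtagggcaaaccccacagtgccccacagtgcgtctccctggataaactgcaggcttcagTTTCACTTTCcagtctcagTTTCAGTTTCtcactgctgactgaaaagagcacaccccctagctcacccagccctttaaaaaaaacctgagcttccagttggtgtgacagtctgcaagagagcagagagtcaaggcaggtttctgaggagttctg
Ddx60: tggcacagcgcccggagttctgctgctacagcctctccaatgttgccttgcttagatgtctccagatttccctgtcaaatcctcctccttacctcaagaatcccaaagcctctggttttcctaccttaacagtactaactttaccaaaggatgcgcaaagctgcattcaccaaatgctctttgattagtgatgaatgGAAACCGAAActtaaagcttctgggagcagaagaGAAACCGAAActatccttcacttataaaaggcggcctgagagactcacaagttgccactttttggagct
In Ifit3 and Ifit1 the pair was TTTCACTTTC and TTTCAGTTTC, the element read on the opposite strand, at 156 and 122 bases before the start site in Ifit3 and at 104 and 85 in Ifit1. In Ddx60 both matches were GAAACCGAAA, at 53 and 19 bases before it.

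Among the antiviral genes, Mx1, Ifit3 and Mx2 were under the floor in control cells. Mx1, a gene of the Mx GTPase family, had 41.3 in control and 623 in TOFA cells and was at least 14.4-fold higher. Its level was 113 in naive, 143 in Rap and 409.7 in memory cells. Ifit3, which binds foreign RNA together with its relatives, had 12.6 and 424, with 349.5 in naive, 56.2 in Rap and 535 in memory cells, at least 9.78-fold. Mx2 had 10.8 and 328, at least 7.55-fold, with 44.2 in naive, 17.0 in Rap and 80.0 in memory cells. Each of these 3 rests on 1 probe set.

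Ddx60, an RNA helicase of antiviral defence outside the lists, was supported by both probe sets, with 67.1 in control and 421 in TOFA cells (6.27-fold) and at least 3.30-fold on the dimmer. Its level was 882 in naive, 166 in Rap and 609 in memory cells. Rtp4, an interferon-induced chaperone of receptors, had 78.1 in control and 1641 in TOFA cells (4.39 on the log2 scale), with 2561 in naive, 401 in Rap and 4385 in memory cells. Its other probe set was at the floor in control cells and at 53.2 in TOFA cells. In both genes the control array was the lowest of the 5, and the TOFA level stayed below the naive level.

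Usp18, a protease that dampens interferon signalling, had 370.2 in control and 2382 in TOFA cells (6.44-fold), above the 875 in naive, 557 in Rap and 569 in memory cells. Xaf1, a proapoptotic interferon target, had 1141 and 6100.1 (5.34-fold), and its dim probe set differed by at least 0.87. Samd9l, a translation inhibitor, had 256 and 1329 (5.20-fold), with 7359 in naive and 6652 in memory cells. The sensors of viral RNA Ifih1 (542 and 1938, 3.58-fold) and Ddx58 (447 and 1106, 2.48-fold) were higher, Ddx58 with support. Bst2, which tethers virus particles at the cell surface, had 1108 and 2864 (2.58-fold). Oas2, Oas3 and Oasl1, of the family that senses double-stranded RNA, were 3.73-fold, 3.48-fold and 3.50-fold higher. Rsad2, the antiviral enzyme viperin, was 3.32-fold higher (63.5 and 210.5), and its 2 other probe sets were at the floor in control cells.

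Among 19 interferon regulators, 1 was higher and 0 lower, with a median of 0.00. This was Irf7, the factor that amplifies type I interferon, with 155 in control and 594 in TOFA cells (3.84-fold), beside 561 in naive, 338 in Rap and 1056 in memory cells. The ISGF3 subunit genes Stat2 (247 and 392) and Irf9 (964 and 1507) differed by 0.66 and 0.64. Ifnb1, the gene of interferon beta, was close to or under the floor on both arrays, with 51.5 in control and 41.0 in TOFA cells. The receptor genes Ifnar1 (1174 and 1197) and Ifnar2 (1444 and 1323) were near 0, while Ifngr1 had 1990.1 and 1231.

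Genes of guanylate binding proteins, immunity-related GTPases and the p200 family lay above 0 in all 14 cases, with 4 higher and 0 lower (median 0.66), and all 18 of their probe sets were above 0. Gbp6 had 1719 in control and 6397 in TOFA cells, with 3114 in naive, 5284 in Rap and 2644 in memory cells. Its 2 probe sets gave 3.72-fold and 3.82-fold. Iigp1, a GTPase that attacks the vacuoles of intracellular parasites, had 3993 and 10575 (2.65-fold) with support. Ifi202b, a p200 gene, had 775 and 2675 (3.45-fold), and the p200 gene Ifi209, outside the list, was supported at 3.78-fold (597 and 2256). MHC class I and antigen processing genes had a median of 0.25, with 0 of 14 past 2-fold.

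Markers of myeloid cells moved beside these genes, with summed signals of 509 in control and 829 in TOFA cells over 19 markers and a median of 0.45 over the 7 compared. Mpeg1, a macrophage pore protein, was at least 3.57-fold higher (7.47 and 155), while Adgre1, which marks macrophages, had 59.8 and 44.6. Cd14 (19.9 and 74.4) and Fcer1g (13.8 and 59.1) were under the floor in control but not in TOFA cells. Both were also under it in Rap cells. Of 10 dendritic cell markers compared, 1 was higher, Bst2, which is also an interferon target, and 1 lower, with a median of -0.32. The part of these cells in the interferon result was not tested.

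**Figure D4:**
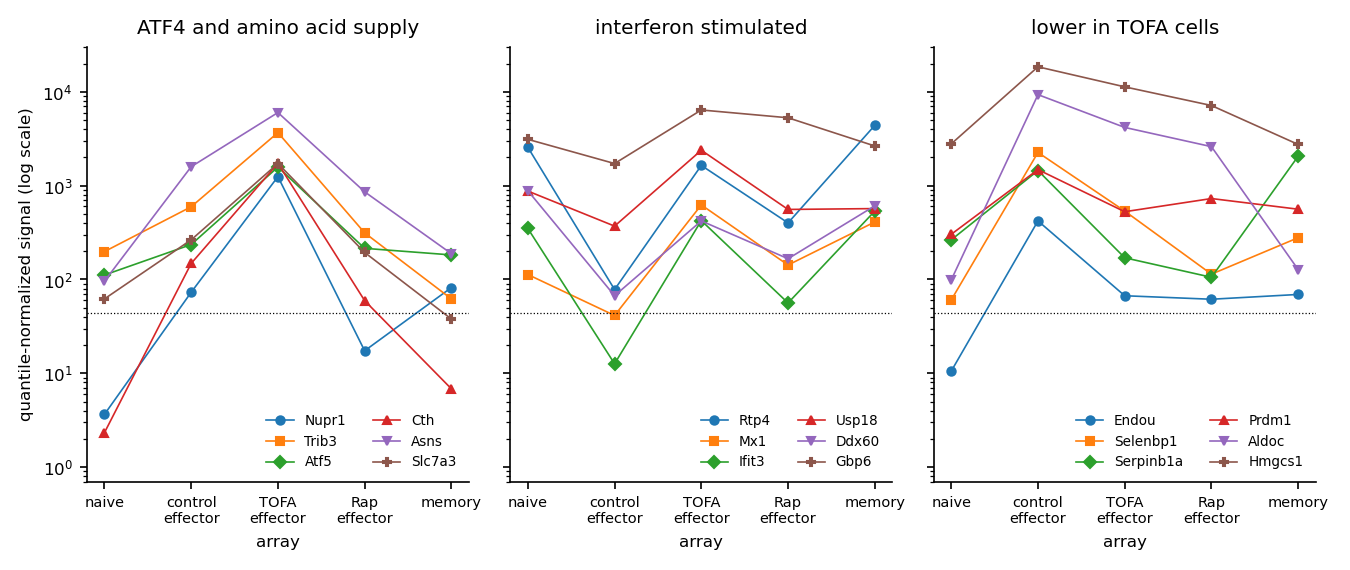
Quantile-normalized signal (vertical, log scale) on each of the 5 arrays (horizontal) for 6 genes of the ATF4 and amino acid group, 6 interferon stimulated genes and 6 genes lower in TOFA cells, with lines joining the arrays only to guide the eye and the floor of 43.4 dotted. The 6 genes of the first panel are highest in TOFA cells, while in the second panel the control array is the lowest for each gene.

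Th1 effector genes differed in both directions. Of 25 genes, 3 were lower and 1 higher (median -0.16), and 0 were supported by several probe sets. Prdm1, which encodes Blimp-1, the factor that drives terminal effector differentiation, had 1482 in control and 527 in TOFA cells, with 303 in naive, 728 in Rap and 560.4 in memory cells. It was 2.81-fold lower on its only probe set, and control cells were the highest of the 5 arrays. Gzmb, the protease granzyme B, had 28439.8 and 13979 (2.03-fold lower), with 26476 in Rap cells and 266 and 223 in naive and memory cells. Gzmb was just past the threshold and fell short of it, at -0.88 to -0.96, under each of the 3 other scalings. Gzma, another granzyme, had 235 and 116 (2.02-fold lower).

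Ifng, the gene of interferon gamma, had 4108 in control and 2301 in TOFA cells, under 2-fold, with 980.1 in Rap cells. Ccl5, a chemokine that attracts T cells and monocytes, was the higher member, with 408 in control and 1691 in TOFA cells (4.14-fold), 1079 in naive, 409 in Rap and 3708 in memory cells. Cxcr3 (1679 and 2317), Il12rb2 (193 and 159), Eomes (837 and 616) and Id2 (11508 and 6998) were all under 2-fold.

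Among cytokines of other helper programs, Il21, which supports B cells and follicular help, was supported, with 169.6 in control and 664 in TOFA cells, against 5.15 in naive, 292 in Rap and 42.2 in memory cells. Its probe sets gave 3.91-fold and 3.24-fold. Foxp3, the regulatory T cell factor, had 52.6 and 124 (2.36-fold), and Il24, a cytokine of the IL-10 family, had 869.6 and 396 (2.19-fold lower). In this list of 18 genes, 2 were higher and 1 lower, and the median was -0.13.

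Genes of activation and signalling included some of the larger single differences. Egr1, an immediate early transcription factor, had 86.8 in control and 966 in TOFA cells on its only probe set (11.1-fold). Its level was 4383 in naive, 351 in Rap and 2683 in memory cells. Dusp2, a phosphatase of ERK, had 391 and 1002 (2.56-fold), and Egr2 was at least 2.12-fold higher. These were the 3 higher of 27 EGR, AP-1 and NR4A genes (0 lower, median 0.23). Of 21 inhibitory and costimulatory receptor genes, Slamf6, Cd69 and Cd83 were higher, at 3.23-fold, 2.65-fold and 2.52-fold, and 0 were lower. Slamf6, a receptor kept on less differentiated T cells, had 305 and 985, with 1503 in naive, 674 in Rap and 894 in memory cells, and its other probe sets differed by 0.74 and 0.11.

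Genes of memory and quiescence had 2 lower members of 25 and 0 higher (median -0.05). S100a4, a calcium binding protein of motile cells, had 348 in control and 93.6 in TOFA cells (3.71-fold lower), with 463 in naive, 131 in Rap and 4714 in memory cells, and Id3, an inhibitor of E proteins, had 845 and 389 (2.17-fold lower). Ccr7 (2712 and 4261), Il7r (8065 and 7041) and Klf2 (934 and 600.5), which mark resting and recirculating cells, were under 2-fold. Il2ra, the alpha chain of the IL-2 receptor, had 4765 and 7160.3, and 0 of 20 STAT5 and cytokine response genes were past 2-fold.

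Most genes of glucose use and of the response to low oxygen lay below 0 by less than 2-fold. Of 17 glycolysis genes, 2 were lower and 0 higher (median -0.25), and 33 of 36 probe sets lay below 0. Aldoc, an aldolase, was supported, with 9323 in control and 4170.0 in TOFA cells, 98.9 in naive, 2601 in Rap and 127 in memory cells. Its probe sets were 2.24-fold and 2.68-fold lower. Eno2, an enolase, had 1666 and 782 (2.13-fold lower), while Ldha (35765 and 33772) and Pgk1 (43015 and 37748) differed by -0.08 and -0.19.

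Of 21 hypoxia response genes, 2 were lower, both with support, and 0 higher (median -0.47), and 41 of 46 probe sets lay below 0. Selenbp1, an oxidase of methanethiol placed in this list, had 2257 in control and 536 in TOFA cells, with 60.5 in naive, 114 in Rap and 279 in memory cells. Its probe sets were 4.21-fold and 5.14-fold lower. Adm, the vasodilator peptide adrenomedullin, had 315 and 119 (2.65-fold lower, and 3.36-fold on the other probe set). Ndrg1, a stress-responsive gene of low oxygen, had 13762 and 8241, and its 5 probe sets lay between -1.05 and -0.59. Hif1a itself had 18001 and 23624. The core letters of the HIF element, ACGTG on either strand, stood in 15 of the 19 promoter windows of this list (78.9%) and in 28.8% of the windows of all genes compared. It stood in 70 of the 226 lower genes with a window (31.0%). In the hypoxia and glycolysis lists together it stood in 2 of 4 lower members and in 25 of 31 members under 2-fold (80.6%). Car12, a carbonic anhydrase of the cell surface, was outside the list and supported at 2.11-fold lower (1769 and 837).

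Genes of cell division stood above their naive levels on both arrays. All 27 mitosis genes lay below 0 in TOFA cells, with a median of -0.41 and 0 past 2-fold, and 53 of 54 probe sets were below 0. Aurkb, a kinase of chromosome segregation, was furthest, with 4266 in control and 2566 in TOFA cells, 69.3 in naive, 3529.6 in Rap and 72.8 in memory cells. Mki67, a marker of cycling cells, had 14779.5 and 13229.5, and Top2a, the topoisomerase of dividing cells, had 20615 and 20261. DNA replication genes had 0 of 30 past 2-fold and a median of -0.11. Ribosome biogenesis and MYC targets (27 genes, median 0.19), cytosolic ribosomal proteins (18 genes, 0.03) and oxidative phosphorylation (27 genes, -0.06) also had 0 members past 2-fold.

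**Figure D5:**
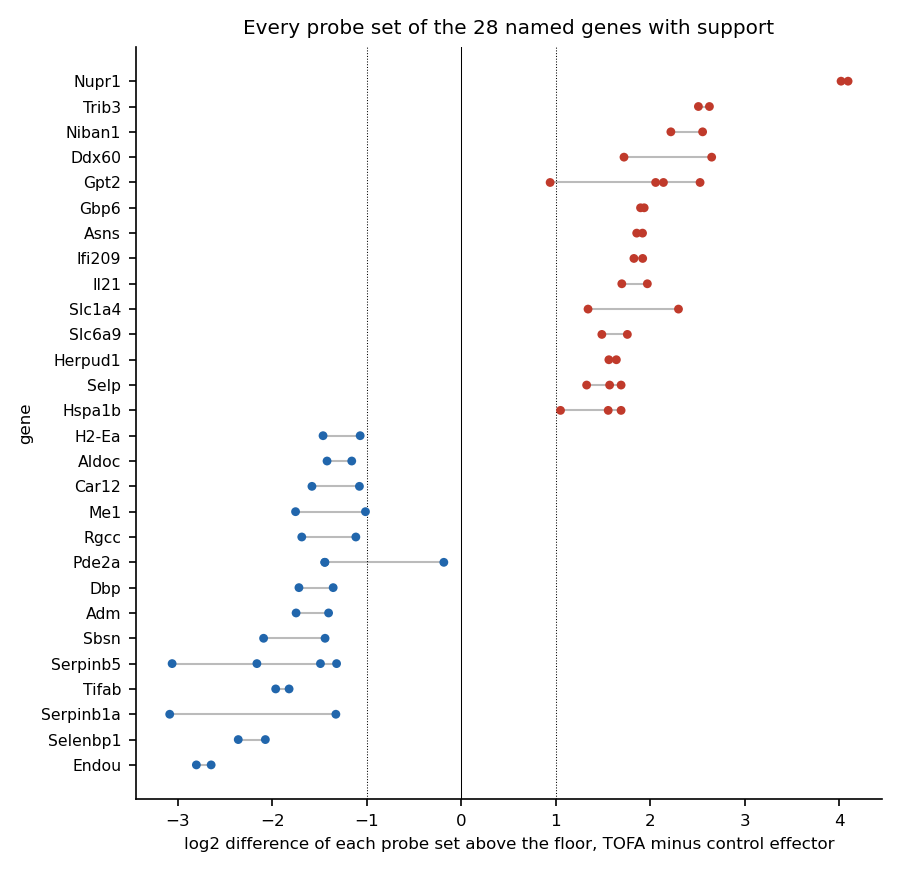
Difference between TOFA and control effector cells (log2, horizontal) for every probe set above the floor of 28 genes with support (vertical), 14 higher in red and 14 lower in blue, with dotted lines at 2-fold. The 2 probe sets of Nupr1 lie at 4.02 and 4.09 and those of Endou at -2.81 and -2.65, while the probe sets of Pde2a, Serpinb1a and Gpt2 lie further apart.

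Of the 14 genes named as furthest lower with support, 6 were members of a list. Endou, outside them, a ribonuclease that cleaves at uridines, had 421 in control and 67.1 in TOFA cells, with 10.5 in naive, 61.5 in Rap and 69.2 in memory cells. It was 6.27-fold lower on that probe set and at least 6.99-fold on the other. Serpinb1a, an inhibitor of neutrophil proteases, had 1448 and 170.3 (8.50-fold lower), with 264 in naive, 105 in Rap and 2058 in memory cells, and its dimmer probe set was at least 2.51-fold lower. Serpinb5, another member of the serpin family, had 381 and 45.6 (8.35-fold lower), and its 3 other probe sets were at least 2.50-fold lower. Of the 18 serpin and cathepsin genes compared, 3 were lower and 1 higher. The higher one, Serpinb9, which protects cells from granzyme B, was supported at 2.18-fold.

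Tifab, a regulator of TRAF signalling, had 265 in control and 74.9 in TOFA cells (3.54-fold lower), and Sbsn, a secreted epithelial protein, had 238 and 55.8 (4.27-fold lower). With the floor at the 60th percentile these 2 genes differed by -0.82 and -0.66. Dbp, a clock-controlled transcription factor, had 3788 and 1150.2 (3.29-fold lower), with 1019.6 in naive, 1828 in Rap and 645 in memory cells. Pde2a, a phosphodiesterase of cyclic nucleotides, had 1095 and 402 (2.72-fold lower), and another probe set differed by -0.19. Rgcc, a regulator of the cell cycle, had 1744 and 804 (2.17-fold lower, and 3.23-fold on the other probe set).

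Among MHC class II genes, H2-Ab1 and H2-Ea were lower with support. H2-Ab1 had 1576 in control and 572 in TOFA cells (2.76-fold lower), with 1424 in naive, 658 in Rap and 10952 in memory cells, and its 3 probe sets lay between -1.46 and -1.03. H2-Ea had 288 and 137 (2.10-fold lower), with 24425 in memory cells, and was at least 2.76-fold lower on a second probe set. H2-Eb1 (334 and 185) and Cd74 (201 and 162) were under 2-fold. B cell markers, which could carry the same genes, summed to 2215 and 2641, and their part in the result was not tested. The list of calcium binding and galectin genes, in which Emp1 was also placed, had 5 lower and 0 higher of 17 (median -0.43). S100a1 was supported at 2.10-fold lower. S100a6 (1877 and 855), Emp1 (3507 and 1605) and Lgals3 (3842 and 1856) were 2.20-fold, 2.19-fold and 2.07-fold lower. Another Emp1 probe set differed by -0.44.

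Further genes higher with support served varied roles. Niban1, a stress-induced regulator of translation, had 467 in control and 2171 in TOFA cells, with 382 in naive, 511 in Rap and 2502 in memory cells, and its probe sets gave 4.65-fold and 5.87-fold. Selp, the adhesion molecule P-selectin, had 293 and 947 (3.23-fold), with all 3 probe sets past 2-fold, and stood at 1643 in Rap cells. Hspa1b, an inducible cytosolic chaperone, had 86.6 and 279.5 (3.23-fold), and its 3 probe sets lay between 1.05 and 1.69. Probe sets of this gene can share sequence with its near copy, so that the source of the signal is uncertain. The next 4 genes were chosen after their values were seen and are not the furthest of the supported genes. Chchd10, a mitochondrial protein tied to the mitochondrial stress response, had 9037 and 22066 (2.44-fold). Cd40 and Cd86, costimulatory molecules of antigen-presenting cells, were supported at 3.15-fold (102 and 319.7) and 2.06-fold (212 and 436), and Tlr4, the endotoxin receptor, at 3.37-fold (104 and 349). For these 3 genes the memory array was higher than the TOFA array, at 563, 2795 and 1541.

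Genes measured by 1 probe set have no such check. Among genes named above, Egr1, Dusp2, Cd69, Cd83, Slc7a3, Slc7a5, Slc3a2, Chac1, Ccl5, Plin2, Irf7 and Ifi202b rest on 1 probe set each. So do Bst2, Psph, Dnajb9, Eno2, Gzmb, Gzma, Foxp3, Il24, Id3, S100a4, S100a6 and Lgals3. Furthest lower among genes with 1 probe set were Fam183b, with 689 in control and 45.8 in TOFA cells (15.0-fold), and Cuzd1, with 374 and 45.1 (8.29-fold). Both TOFA signals were close to the floor, and with the floor at the 60th percentile the differences were -2.19 and -1.31 on the log2 scale. Rpl39, a ribosomal protein gene, was at least 7.41-fold lower (321 and 40.2), while 0 of the 18 ribosomal protein genes listed were past 2-fold. Maged1 (277 and 48.2), Fbxo10 (278 and 56.8) and Mapk13 (210.4 and 34.0) followed, at 5.75-fold, 4.90-fold and at least 4.85-fold lower.

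In some genes the probe sets opposed each other, so that no direction can be given for the gene. Hrk, a proapoptotic gene, was 2.02-fold lower on the brightest probe set and at least 2.08-fold higher on the other. Spire1, an actin nucleator, was 2.24-fold lower, with 3 further probe sets below 0 and another at least 2.40-fold higher. Dnm1 was 5.76-fold lower on 1 probe set and at least 1.64-fold higher on the other, and Ncoa7 was 2.99-fold higher on 1 and 1.62-fold lower on the other. Fam120c and Synj2 showed the same split. Cd8a, the marker of killer T cells, was at least 2.25-fold lower on its brightest probe set, while its 3 others above the floor lay between -0.18 and 0.56.

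The lists that follow held at most 2 members past 2-fold each, beside 2.43% higher and 2.17% lower among all genes. Among 20 apoptosis regulators, Hrk and Bik were lower and 0 were higher (median 0.05), and the probe sets of both genes went different ways. Of 21 genes of CDK inhibitors and p53 targets, 2 were higher and 0 lower: Plk2, a stress-responsive kinase, with 349 in control and 805 in TOFA cells (2.31-fold), and Sesn2. Of 15 NRF2 targets, which respond to oxidants, Slc7a11 was higher and Me1 lower. Hmox1, the heme oxygenase of the same response, had 209.8 and 388. Lists of autophagy and lysosome (21 genes), iron and heme (14) and integrins (18) had 0 members past 2-fold, with medians of -0.03, -0.17 and -0.15.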

How the data were processed

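RNA of the 5 groups was measured on 1 Affymetrix mouse array each. Per the submitters' processing notes, the authors used Affymetrix Expression Console and GCOS. Not given in the sources used here are their versions and the algorithm. Each deposited value is the linear intensity of a probe set, and each array had a mean of 500.003 once 2% was trimmed. Array medians differed by up to 0.658 on the log2 scale, so the signals were quantile normalized over the 5 arrays after setting 64 control probe sets aside. How a scaling or floor enters a difference was tried with other settings.

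Of 45037 probe sets, 34945 carried 1 symbol in the 2016 annotation of the platform, 932 carried several and 9160 none. Of the first, 34741 had an Entrez identifier in RefSeq, and 0 of their symbols differed.

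The 45 gene lists (951 entries, 860 of them found on the array) and all rules were chosen with earlier results of these data known. Some genes of the lists are not analysed here. Named genes were a fixed set, the 14 furthest higher and 14 furthest lower supported genes by the median of their probe sets and the 6 furthest each way with 1 probe set, all at or above the 60th percentile and without predicted genes. To these came the members with the largest differences in each list, members needed to describe it, and the 6 genes whose probe sets most opposed. Me2, Selenos, Chchd10, Cd40, Cd86 and Tlr4 were chosen from the supported genes after their values were seen. The calculations used Python 3.11.15, numpy 2.4.6, pandas 2.3.3, scipy 1.17.1 and, for cyclic loess, limma 3.58.1 in R 4.3.3, and were tested on simulated data.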

Additional observations from a re-analysis of the deposited data

How the results depend on the processing

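The 10 alternatives were signals as deposited, quantile normalization over the 3 effector arrays, cyclic loess, floors at the 20th and 60th percentiles, an added constant in place of the floor, the mean over probe sets per gene, omission of _x_at and _s_at probe sets, and thresholds of 1.5-fold and 3-fold. Counts of higher and lower genes, 316 and 282 as reported, were 1239 and 1239 with the floor at the 20th percentile, 141 and 85 at the 60th, 1112 and 1067 at 1.5-fold and 86 and 55 at 3-fold, and 178 genes were lower with the mean of all probe sets. Supported higher and lower genes, 41 and 23 as reported, were 85 and 80 with the floor at the 20th percentile, 23 and 12 at the 60th, 173 and 147 at 1.5-fold and 11 and 4 at 3-fold. Supported lower genes were 15 with the added constant and 10 without _x_at and _s_at probe sets. With the mean of all probe sets, support cannot be counted. With signals as deposited, 263 genes were higher and 286 lower. The floor and the threshold thus set the counts most. Each scaling moved the median of all genes by less than 0.1 on the log2 scale. The median of the antiviral list was 1.07 with the floor at the 60th percentile and 1.31 with the added constant, beside 1.73, and that of the amino acid transporters was 0.43 with the mean over probe sets, beside 0.77. Of 128 medians of the lists recomputed under the alternatives, the 126 besides the 2 of the antiviral list just given kept their sign and moved by less than 0.37, the SD between probe sets of a gene. Cd8a changed sign, to 0.56 with the floor at the 20th percentile and 0.33 with the added constant, and Hrk to 0.021 with the mean of all probe sets. Of 50 named genes past 2-fold, 31 were so in the same direction under every alternative that gave a value. Acacb fell short at -0.90 with the added constant and -0.69 with the mean of probe sets, and Me1 at -0.96 with the constant. Without _x_at and _s_at probe sets Gpt2 stood at 0.94, on another probe set of the gene. With the mean over probe sets Car12 stood at -0.89 and H2-Ea at -0.85. With the floor at the 60th percentile Hspa1b stood at 0.89, Fbxo10 at -0.89, Maged1 at -0.88 and Mapk13 at -0.48. That floor also shortened differences that stayed past 2-fold, to 3.05 in Nupr1, 2.68 in Egr1, 2.21 in Aldh1l2, 2.05 in Mx1, 1.49 in Ifit3, 1.48 in Ddx60, 1.12 in Mx2, -1.10 in Rpl39, -1.34 in Serpinb5 and -1.48 in Endou. No paired analysis was possible because each group has 1 array, and for the same reason no replicate could be left out. The SD between probe sets of a gene was 0.53 in dim genes and 0.30 in bright ones, the cause of which was not tested.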
